A study of Mus musculus with 2 samples.

Results

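Granzymes and mast cell proteases are serine proteases that blood-derived cells store in cytoplasmic granules, and in the mouse many of their genes lie side by side in 1 cluster on chromosome 14. The genes described here are Gzmb, Gzmc, Gzmd, Gzme, Gzmf, Gzmg, Mcpt4, Mcpt8, Cma1 and Ctsg. They are all the genes on this list, each measured by the 1 probe set whose only gene symbol is that gene, so that 10 of the 19938 genes with a value are considered. The members were chosen by their measured difference between these same arrays, MatDup.dist7 minus PatDup.dist7 on log2(intensity + 16), together with their place in the cluster. The values below therefore describe them and test nothing.

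Transcripts were measured in mouse embryonic fibroblasts (MEFs), connective-tissue cells grown, per the labels, from embryos of 13.5 days post coitum. The groups were MatDup.dist7, in which both copies of distal chromosome 7 are of maternal origin, and PatDup.dist7, in which both are of paternal origin. Both carry this uniparental segment, and a culture with 1 copy from each parent was not analysed here. Each genotype was hybridised to 1 Affymetrix whole-transcript array, so there was no replicate, and the sources used here do not give the strain, the number of embryos behind a culture or the passage. The protease cluster lies on chromosome 14, outside the segment that distinguishes the genotypes.

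As background, cytotoxic T cells and natural killer cells release granzymes together with the pore-forming protein perforin, and granzyme B then cleaves proteins of the target cell after aspartate residues. Mast cells store chymases bound to the proteoglycan serglycin, basophils store Mcpt8, and neutrophils and monocytes store cathepsin G. Many of these enzymes are made as inactive precursors whose first residues are removed by the lysosomal protease cathepsin C. Fibroblasts are not classical producers of any of them.

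Where a pair of intensities is given without the genotype, MatDup.dist7 comes first. The genotype labels matched the known behaviour of imprinted genes of the segment: Cdkn1c, expressed from the maternal copy, had 1109 on the MatDup.dist7 array against 0.013 on the PatDup.dist7 array, and Igf2, expressed from the paternal copy, had 7.48 and 1013. Sex-linked transcripts differed as well, with the Y-linked Uty at 77.9 and 2.61 and Xist, which coats the inactive X chromosome, at 0.0017 and 91.2. Genotype, sex and culture therefore cannot be told apart for the proteases. The median intensity over all probe sets was 68.6 on the MatDup.dist7 array against 64.2 on the PatDup.dist7 array. The central 95% of the log2 differences of all genes ran from -1.07 to 1.21, and having 1 array per genotype limits the precision of each value given.

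The sequences just upstream of the genes show how closely related the cluster is. RefSeq sequence of assembly GRCm38.p6, from 250 bases before to 50 bases after the annotated start of each gene, was found for all 10 genes. The promoters of Gzme and Gzmd shared 281 of 300 bases after alignment, those of Gzmg and Gzmf 261, and those of Gzmd and Gzmf 248. Mcpt4 shared 249 bases with Mcpt1, a neighbouring mucosal mast cell protease gene that is not on the list. By contrast, Gzmb shared at most 160 bases with any other gene of the cluster compared, that gene being Mcpt1. The following promoters are printed because near-identical pairs among them had like or unlike differences between the arrays. Gzme (chr14:56120576-56120875), Gzmd (chr14:56132544-56132843), Gzmg (chr14:56159530-56159829), Gzmf (chr14:56211358-56211657) and Mcpt4 (chr14:56062261-56062560) lie on the minus strand and Mcpt1 (chr14:56017714-56018013) on the plus strand. Each is written 5′ to 3′ along its gene, with the motifs named in the next paragraph in capitals.
Gzme: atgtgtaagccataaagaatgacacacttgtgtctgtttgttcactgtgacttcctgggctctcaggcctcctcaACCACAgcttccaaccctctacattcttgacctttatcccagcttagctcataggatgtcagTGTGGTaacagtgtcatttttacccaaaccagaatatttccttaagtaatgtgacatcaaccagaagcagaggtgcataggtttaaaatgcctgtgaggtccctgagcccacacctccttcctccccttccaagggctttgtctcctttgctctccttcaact
Gzmd: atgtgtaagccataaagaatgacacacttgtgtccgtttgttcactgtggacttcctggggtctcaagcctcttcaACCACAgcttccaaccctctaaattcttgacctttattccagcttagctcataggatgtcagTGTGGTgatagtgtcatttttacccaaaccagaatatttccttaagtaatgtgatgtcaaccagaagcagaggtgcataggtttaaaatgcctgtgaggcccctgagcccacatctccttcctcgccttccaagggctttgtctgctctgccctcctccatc
Gzmg: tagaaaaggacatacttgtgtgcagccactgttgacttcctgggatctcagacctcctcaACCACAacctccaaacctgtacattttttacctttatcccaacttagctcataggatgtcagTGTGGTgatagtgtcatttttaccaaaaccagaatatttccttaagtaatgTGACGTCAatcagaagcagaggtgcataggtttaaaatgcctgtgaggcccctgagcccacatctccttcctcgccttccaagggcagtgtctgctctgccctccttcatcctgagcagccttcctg
Gzmf: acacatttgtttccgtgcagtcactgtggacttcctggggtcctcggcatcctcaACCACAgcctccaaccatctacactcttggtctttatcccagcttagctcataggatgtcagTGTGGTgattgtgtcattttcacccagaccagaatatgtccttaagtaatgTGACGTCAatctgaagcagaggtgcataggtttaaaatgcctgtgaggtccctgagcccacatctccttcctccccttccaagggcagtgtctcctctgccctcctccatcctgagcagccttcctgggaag
Mcpt4: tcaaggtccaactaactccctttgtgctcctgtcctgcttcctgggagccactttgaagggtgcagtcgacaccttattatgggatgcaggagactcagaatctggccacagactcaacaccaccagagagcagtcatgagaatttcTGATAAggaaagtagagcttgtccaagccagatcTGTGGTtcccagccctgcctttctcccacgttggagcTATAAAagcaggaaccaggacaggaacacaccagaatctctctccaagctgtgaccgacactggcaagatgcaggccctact
Mcpt1: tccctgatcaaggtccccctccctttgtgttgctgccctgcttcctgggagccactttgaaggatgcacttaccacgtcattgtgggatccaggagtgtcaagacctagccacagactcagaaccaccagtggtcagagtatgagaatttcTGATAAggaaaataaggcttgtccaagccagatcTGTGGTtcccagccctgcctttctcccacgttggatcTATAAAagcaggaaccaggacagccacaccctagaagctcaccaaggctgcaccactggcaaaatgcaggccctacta

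Of the 6 motifs searched on both strands, TGTGGT, the core bound by RUNX factors, was present in the promoters of all 10 genes, compared with 16.8% of all 32851 promoters of the table. In Cma1 the only match lay after the start, at position 33. Of the other cluster genes compared, Mcpt1 held the motif and Gzmn and Mcpt9 did not. The 10 promoters are not independent, since several are copies of one another. Gzme held the reverse form ACCACA 175 bases and the forward form 113 bases before the start, and Gzmd held them at 174 and 112 bases. The same pair stood at 190 and 128 bases in Gzmg and at 195 and 133 bases in Gzmf. The cyclic AMP response element TGACGTCA was found in Gzmg, Gzmf and Gzmc (1.79% of all promoters) and was not found in the windows of Gzme and Gzmd. Mcpt4 held TATAAA 32 bases, TGTGGT 69 bases and the GATA motif TGATAA 103 bases before its start, and Mcpt1 held the same motifs at 28, 65 and 99 bases. TATAAA was also present in Ctsg (13.6% of all promoters), TGATAA in no other member (9.05%), the AP-1 motif TGANTCA in Gzmb alone (7.81%), and the GATA motif AGATAA in none (11.2%). None of these matches overlapped another. The promoters of the members held 0 to 8 CpG dinucleotides, with a median of 2, and the median over all promoters was 7. A match describes letters in this window and does not show that a factor binds there.

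In the middle of the cluster, among the genes from Mcpt4 to Gzmg, signals were several-fold lower on the MatDup.dist7 array. Of the 10 members, 5 were at least 2-fold lower in MatDup.dist7 on the log2(intensity + 16) scale, namely Gzme, Gzmd, Gzmg, Mcpt4 and Mcpt8, and none was at least 2-fold higher. Over all 19938 genes, 3.16% were at least 2-fold lower in MatDup.dist7 and 4.47% were at least 2-fold higher. The lower share was 2.42% of the genes above the signal filter defined below and 3.29% of the genes whose mean level lay within the members' range. Nothing is read from that contrast, because the members were chosen with it in view. The median log2 difference of the members, MatDup.dist7 minus PatDup.dist7, was -1.08, and the median of all genes was 0.02. The same 5 genes passed a 3-fold rule, which 0.552% of all genes passed in this direction.

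**Figure D1:**
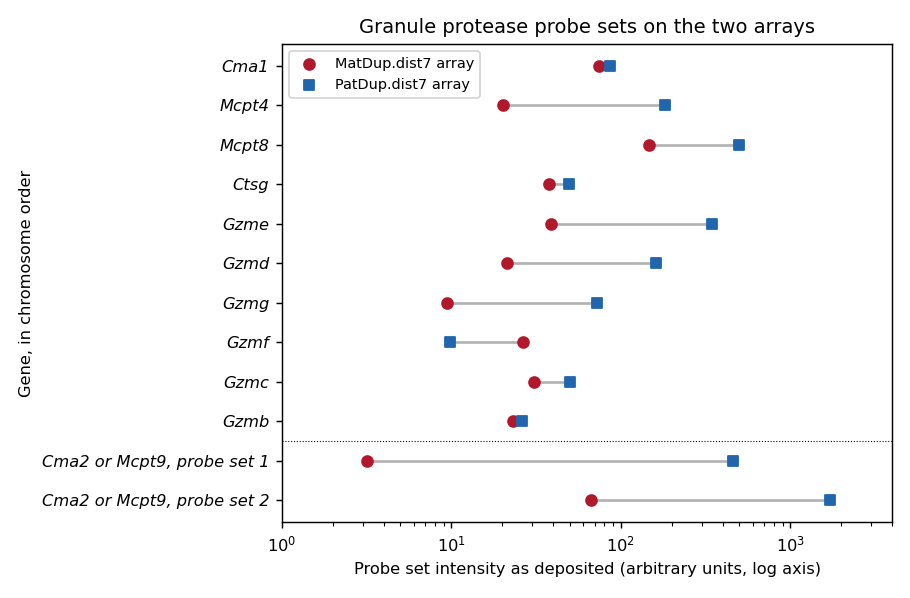
Deposited intensity of each granule protease probe set on the MatDup.dist7 array (red circles) and the PatDup.dist7 array (blue squares), on a log axis, with 1 array per genotype and therefore no error bars. Genes are in chromosome order, and below the dotted line are the probe sets that name both Cma2 and Mcpt9. Gzmf is the 1 gene with the higher signal on the MatDup.dist7 array.

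The granzymes C to G are rodent granzymes of activated killer lymphocytes, several of them made by the natural killer cells of the pregnant uterus, and their probe sets did not move together. Gzme had an intensity of 38.9 on the MatDup.dist7 array against 344 on the PatDup.dist7 array, a log2 difference of -2.71. This was rank 6 from the lowest difference of all genes. Gzmd, whose promoter is nearly identical to that of Gzme, had 21.4 on the MatDup.dist7 array against 162 on the PatDup.dist7 array, a log2 difference of -2.25 and rank 16. Gzmg had 9.39 and 72.2, respectively, a log2 difference of -1.80 and rank 66. On the scale with the pseudocount these differences correspond to 6.55-fold, 4.76-fold and 3.47-fold higher values in PatDup.dist7. The ratios of the intensities themselves were 8.84, 7.56 and 7.68, so that the smaller difference of Gzmg on the log2(intensity + 16) scale goes with its low signal.

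The other granzymes on the list had weak signals and smaller differences. Gzmf went the other way, with 26.4 on the MatDup.dist7 array against 9.82 on the PatDup.dist7 array, a log2 difference of 0.72. Gzmc had 30.6 on the MatDup.dist7 array against 50.2 on the PatDup.dist7 array (-0.51). Gzmb, the granzyme best known for starting apoptosis in target cells, had 23.0 on the MatDup.dist7 array against 26.3 on the PatDup.dist7 array (-0.12). Thus Gzmb was close to equal on both arrays, while Gzme and Gzmd were several-fold apart. Gzmf passed 2-fold with a pseudocount of 1 (1.34) and lay at 0.27 when signals were floored at their 25th percentile. Both of its values lay below the signal filter, an intensity of 66.4, which is the 50th percentile of all probe sets. Gzmb and Gzmc also lay below it on both arrays. In all, 6 of the 10 members passed the filter, as did 12733 of all 19938 genes. Of the 6, Gzme, Gzmd, Gzmg and Mcpt4 did so through the PatDup.dist7 array alone.

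Among the genes named for mast cells and other granulocytes, Mcpt4 and Mcpt8 were lower in MatDup.dist7. Mcpt4 encodes a chymase of connective-tissue mast cells and had 20.2 on the MatDup.dist7 array against 183 on the PatDup.dist7 array, a log2 difference of -2.46 and rank 10 of all genes. Mcpt8, the basophil protease gene, had 147 on the MatDup.dist7 array against 500 on the PatDup.dist7 array, a log2 difference of -1.66 and rank 103. Mcpt8 was the 1 member above the signal filter on both arrays with such a difference, and the ratio of its intensities was 3.39. Its log2 difference is therefore less dependent on the pseudocount (-1.75 and -1.41 with pseudocounts of 1 and 64). Cma1, another connective-tissue mast cell protease gene, also lay above the filter on both arrays, with 74.7 on the MatDup.dist7 array against 86.8 on the PatDup.dist7 array (-0.18). Ctsg, which encodes cathepsin G, had 37.8 and 49.5 (-0.28), both below the filter. All 4 of these genes had the lower value on the MatDup.dist7 array, 2 of them by at least 2-fold. Among all genes, 48.6% were lower in MatDup.dist7 by any amount and 3.16% by at least 2-fold. The 4 were chosen by this difference, so nothing is read from that contrast.

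With 1 array per genotype no member could be tested against variation between cultures. The agreement of probe sets within these arrays gives a limited yardstick: for genes with several probe sets above the filter, their log2 differences spread around the gene's mean with a standard deviation of 0.40 (1722 probe sets of 642 genes). This yardstick holds no variation between embryos or cultures, and it was taken above the filter, whereas most members lay below the filter on at least 1 array. It is therefore given as a description and not set against the members. Each member had a single probe set, so agreement between probe sets could not be checked for any of them. The genes are close copies, and whether the signal of one gene reaches the probe set of another was not tested.

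**Figure D2:**
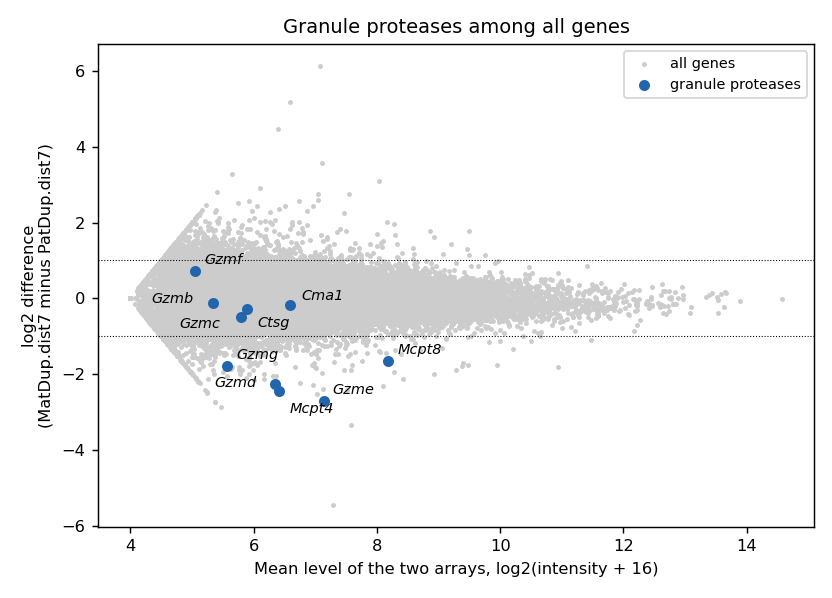
Log2 difference (MatDup.dist7 minus PatDup.dist7) against the mean level of both arrays, in log2(intensity + 16), for all 19938 genes (grey) and the granule proteases (blue); dotted lines mark 2-fold. Gzme, Mcpt4, Gzmd, Gzmg and Mcpt8 lie below -1, and the other members lie within 2-fold.

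Probe sets that name more than 1 gene were outside the comparison, and 2 of them belong to this cluster. Both name Cma2, a gene of the chymase family, together with Mcpt9, a mast cell protease gene. The first had an intensity of 3.19 on the MatDup.dist7 array against 460 on the PatDup.dist7 array, a log2 difference of -4.63. The second had 66.9 on the MatDup.dist7 array against 1707 on the PatDup.dist7 array, a log2 difference of -4.38. In both, the signal was high on the PatDup.dist7 array and low on the other. These differences are larger than that of any member and stood at ranks 2 and 3 from the lowest of all 35557 probe sets, behind that of Igf2. With pseudocounts of 1 and 64 the ranks were 5 and 3 for the first and 169 and 2 for the second. The annotation does not say which of the genes, or whether both, gave the signal.

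Along the chromosome differences of at least 2-fold towards lower signal in MatDup.dist7 were interrupted within the cluster and absent from the 20 flanking genes measured. In the order of the reference gene table the measured proteases run Cma1, Mcpt1, Mcpt2, Mcpt4, Mcpt8, Ctsg, Gzme, Gzmd, Gzmg, Gzmn, Gzmf, Gzmc and Gzmb. The genes at least 2-fold lower in MatDup.dist7 are Mcpt4, Mcpt8, Gzme, Gzmd and Gzmg, which follow each other except for Ctsg (-0.28) between Mcpt8 and Gzme. Of the cluster proteases that are not members, Mcpt1, whose promoter is a close copy of that of Mcpt4, had 95.1 on the MatDup.dist7 array against 91.8 on the PatDup.dist7 array (log2 difference 0.04). Whether promoter sequence has a part in the differences was not tested. Mcpt2, a mucosal mast cell protease gene, had 2.55 and 8.97 (-0.43, or -1.49 with a pseudocount of 1), and Gzmn had 26.1 and 47.0 (-0.58). In all, 11 of the 13 measured proteases had the lower value in MatDup.dist7, where 48.6% of all genes did. Of these 13, 10 are the members, which were chosen by this difference, so nothing is read from that contrast. Among the 3 not chosen, 2 had the lower value in MatDup.dist7, Mcpt2 and Gzmn, both under the signal filter.

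None of the 20 measured genes flanking the cluster, 10 on each side, was at least 2-fold lower in MatDup.dist7, and 3 were at least 2-fold higher. Among all genes, 3.16% were at least 2-fold lower and 4.47% higher. Finding none lower among 20 is near that share, so nothing is read from it. By any amount, 8 of the 20 were lower in MatDup.dist7, as were 48.6% of all genes. The median log2 difference of the 20 was 0.04. The nearest neighbours were Sdr39u1 on one side, with 128 on the MatDup.dist7 array against 66.5 on the PatDup.dist7 array (0.80), and Atp12a on the other, with 77.9 and 87.2 (-0.14). On the whole of chromosome 14, 19 of 702 genes (2.71%) were at least 2-fold lower in MatDup.dist7, and 5 of the 19 are the members named above. The members were chosen by this difference, so nothing is read from their share of the 19.

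**Figure D3:**
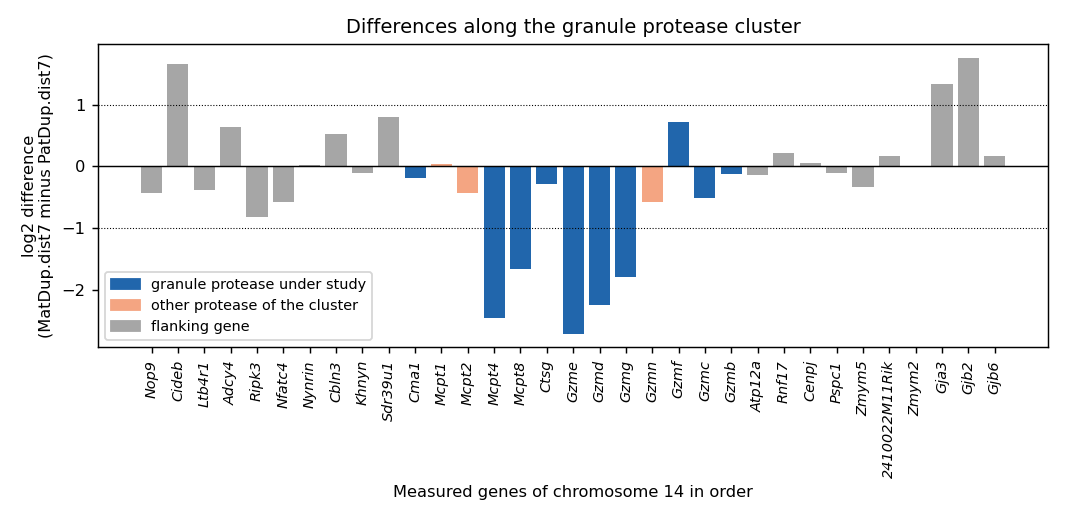
Log2 difference (MatDup.dist7 minus PatDup.dist7, on log2(intensity + 16)) of the measured genes of the chromosome 14 cluster and of 10 genes on each side, in chromosome order; dotted lines mark 2-fold. Bars below -1 occur from Mcpt4 to Gzmg, with Ctsg between them at -0.28, and in no flanking gene.

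Granzyme genes outside the cluster had the opposite sign from most members. Gzma, a trypsin-like granzyme gene, had 58.6 on the MatDup.dist7 array against 37.3 on the PatDup.dist7 array (log2 difference 0.49). Gzmk had 114 and 74.8 (0.51), and Gzmm had 75.1 and 42.3 (0.64). All 3 were higher in MatDup.dist7 and none reached 2-fold. Their median of 0.51 kept its sign under each of the 5 alternatives that changed the pseudocount, the floor or the scaling. Gzma lay below the signal filter on both arrays. By any amount, 10240 of all 19938 genes were higher in MatDup.dist7. The members were chosen by their difference, so nothing is read from the contrast with them.

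Markers of mast cells and basophils outside the cluster had differences of both signs. In such bulk samples fewer cells of a type and less RNA per cell cannot be told apart. Of 11 mast cell markers outside the cluster none differed by 2-fold, 4 were lower in MatDup.dist7 and the median was 0.36, and their summed intensity was 968 on the MatDup.dist7 array against 704 on the PatDup.dist7 array. Among all genes, 48.6% were lower in MatDup.dist7 by any amount, 3.16% by at least 2-fold, and 4.47% were at least 2-fold higher. Cpa3, the mast cell carboxypeptidase gene, had 1.39 on the MatDup.dist7 array against 18.1 on the PatDup.dist7 array (-0.97), the lower value being in the same genotype as for Mcpt4. With a pseudocount of 1, Cpa3 (-3.00), Tpsab1 (-1.65) and Mrgprb1 (-1.45) were at least 2-fold lower in MatDup.dist7 and Fcer1a (2.63) higher, all 4 with signals under the filter, so the count of mast cell markers beyond 2-fold depends on the pseudocount. The tryptase gene Tpsb2 had 75.6 and 77.4 (-0.03). The receptor gene Kit had 121 and 71.6 (0.65), and the IgE receptor genes Fcer1a and Ms4a2 had 19.3 and 2.28 (0.95) and 28.2 and 19.2 (0.33). Of 4 basophil markers 1 was lower in MatDup.dist7 and none reached 2-fold, with a median of 0.56, summed intensities of 192 and 129, and Fcer1a as the largest difference. With a pseudocount of 1, 2 of the 4 were higher in MatDup.dist7 by at least 2-fold. At that pseudocount 2183 of all 19938 genes were higher by as much and 1704 lower. No marker of either list other than Kit, Tpsb2, Hdc, Mitf, Gata2, Hpgds and Prss34 lay above the signal filter.

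Of 17 markers of cytotoxic T and natural killer cells, 2 were higher in MatDup.dist7 by at least 2-fold and none was lower by as much. Among all genes, 4.47% were higher and 3.16% lower by as much. The list had a median of 0.27 and summed intensities of 2432 on the MatDup.dist7 array against 2007 on the PatDup.dist7 array. Prf1, which encodes perforin, had 126 and 77.2 (log2 difference 0.60). Nkg7, a granule membrane protein gene, had 1537 and 1260 (0.28). The T-cell receptor complex gene Cd3e had 150 and 132 (0.17), and the natural killer receptor genes Klrd1 and Ncr1 had 12.8 and 27.1 (-0.58) and 53.4 and 82.6 (-0.51). The 2 beyond 2-fold were Il2rb, the interleukin receptor gene, with 21.4 and 0.0019, and the transcription factor gene Tbx21, with 34.2 and 5.59 (both 1.22), neither above the signal filter. With a pseudocount of 1, 4 of the 17 were higher in MatDup.dist7 by at least 2-fold, and 1, Klrd1 (-1.03), was lower. Over all 19938 genes, 2183 were higher and 1704 lower by as much at that pseudocount.

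Of 11 neutrophil markers, 1 was at least 2-fold lower in MatDup.dist7 and 2 higher, against 3.16% and 4.47% of all genes. The list had a median of 0.33 and summed intensities of 378 and 264. The granule elastase gene Elane had 23.9 on the MatDup.dist7 array against 0.016 on the PatDup.dist7 array (1.32), the peroxidase gene Mpo 23.9 and 26.5 (-0.09), Ngp 29.8 and 30.1 (-0.01) and S100a8 23.1 and 29.0 (-0.20). Csf3r, the receptor gene for granulocyte colony-stimulating factor, had 75.3 and 9.92 (1.82), and the collagenase gene Mmp8 had 0.0058 and 27.4 (-1.44). Values under 1 are low summaries of a probe set and do not show that a transcript is absent. The 4 general leukocyte markers all had signal above the filter, as did 12733 of all 19938 genes. These 4 had a median of -0.31, summed intensities of 2295 and 2356, and Coro1a (248 and 389, -0.62) as the largest difference. Of 7 measured markers of trophoblast and decidua 1 was at least 2-fold lower in MatDup.dist7, Tpbpa with 5.89 and 28.2 (-1.01), and the list had a median of 0.06 and summed intensities of 431 and 386. With a pseudocount of 1 the count was 2, and 1704 of all 19938 genes were as much lower.

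Some fibroblast markers had strong signal on both arrays. Col1a1 had 7565 on the MatDup.dist7 array against 9870 on the PatDup.dist7 array, and Vim had 11913 and 11542. Of 14 fibroblast markers 13 lay above the signal filter, while Lum (51.7 and 52.7) lay below it. All 4 leukocyte markers and 12733 of all 19938 genes passed it too, so passing it does not mark a cell type. The median log2 difference of the fibroblast markers was -0.30, and 11 of the 14 were lower in MatDup.dist7. Of these, 2 were so by at least 2-fold, Dcn (-1.95) and Postn (-1.75), both matrix protein genes. Among all genes, 48.6% were lower in MatDup.dist7 by any amount and 3.16% by at least 2-fold. The summed intensity of the list was 43173 and 51575. Whether the mast cell, leukocyte or fibroblast markers have a part in the protease differences was not tested.

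**Figure D4:**
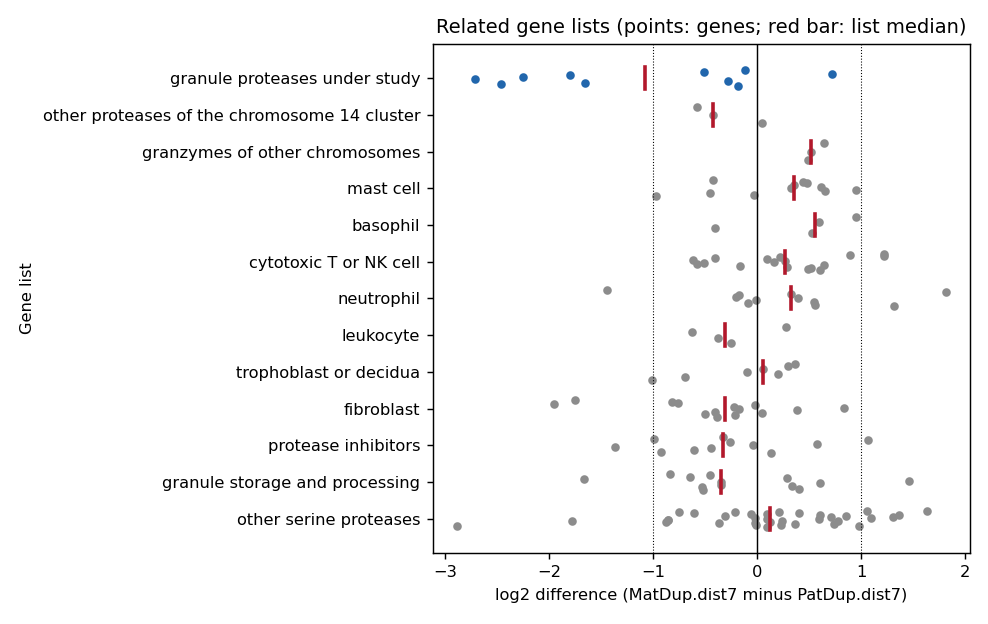
Log2 difference (MatDup.dist7 minus PatDup.dist7) of each measured gene of the granule proteases (blue) and of the related gene lists (grey); red bars are list medians and dotted lines mark 2-fold. The median of the granule proteases is -1.08, and those of the mast cell, cytotoxic and neutrophil lists are 0.36, 0.27 and 0.33.

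Genes that process, store or inhibit granule proteases were mostly within 2-fold. Of 13 measured genes of granule storage and processing, 1 was at least 2-fold lower and 1 higher in MatDup.dist7, against 3.16% and 4.47% of all genes. The list had a median of -0.35. Ctsc, which encodes the activating cathepsin C, had 968 on the MatDup.dist7 array against 1405 on the PatDup.dist7 array (log2 difference -0.53), and Srgn, which encodes serglycin, had 113 and 169 (-0.52); both were chosen for mention after their values were seen. Those beyond 2-fold were the granule release genes Unc13d (0.035 and 34.6, -1.66) and Rab27a (35.0 and 2.56, 1.46), both under the signal filter. Of 11 protease inhibitor genes, 1 was lower and 1 higher by 2-fold, with a median of -0.33. With a pseudocount of 1, 5 of the 11 were at least 2-fold lower in MatDup.dist7, among them Serpinb9b (-1.01), Serpinb9d (-1.72) and Serpina3n (-1.07), and 1 was higher. At that pseudocount 1704 of all 19938 genes were at least 2-fold lower in MatDup.dist7 and 2183 higher. Serpinb9e, of the family that includes the granzyme B inhibitor Serpinb9, had 8.92 and 48.3 (-1.37), Serpinb9 itself 84.5 and 75.7 (0.13), and Serpinb1a, an inhibitor of neutrophil proteases, 20.1 and 1.17 (1.07).

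Serine protease genes of other families went both ways. Of 35 measured, 2 were at least 2-fold lower in MatDup.dist7 and 5 higher, against 3.16% and 4.47% of all genes. The list had a median log2 difference of 0.13. The counts were 4 and 8 with a pseudocount of 1, where those of all 19938 genes were 1704 and 2183. The largest differences were those of Prss12, the neurotrypsin gene (0.31 and 104, -2.88), Htra1 (344 and 1221, -1.78), the elastase gene Cela1 (148 and 36.9, 1.64) and the coagulation factor gene F7 (43.7 and 7.17, 1.37).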

How the data were processed

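The authors deposited 1 linear intensity per probe set and array, made with Affymetrix Expression Console per the submitters' processing notes; the sources used here do not give the background correction, summarisation, normalisation or probe set build. Of 35557 probe sets, 21789 had 1 gene symbol in the platform annotation, 1621 had several and 12147 had none. RefSeq's GRCm38.p6 gene table held the identifiers of 21698 of these and gave symbols and gene order. log2(intensity + 16) was computed, probe sets of a gene were averaged (19938 genes), and differences are MatDup.dist7 minus PatDup.dist7. This scale understates changes of low signals. Called means at least 2-fold. The signal filter kept 12733 genes whose higher value passed the 50th percentile of all probe sets (66.4).

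Members and lists were chosen with earlier results of these data known. The text names every member, the other cluster proteases and granzymes, and in each list the defining markers and up to 4 genes beyond 2-fold, taken by size of difference, or 1 gene where none was; further genes named (Col1a1, Vim, Lum, Serpinb9, Serpinb9b, Serpinb9d, Serpina3n, Tpsab1, Mrgprb1, Ctsc, Srgn and flanking genes) were chosen after their values were seen. Of the 5 unmeasured cluster genes of the list, Cma2 and Mcpt9 have only shared probe sets. Likeness of pattern between genes cannot be measured on 2 arrays. The calculations were tested on simulated arrays in which only genes of strong signal were changed, so weak signals like those of most members were not covered. Promoters came from RefSeq's table and were aligned globally with Biopython 1.88; Python 3.11.15 and pandas 2.3.3 were used.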

Additional observations from a re-analysis of the deposited data

Results flagged for a closer look

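Strong signal appeared in probe sets that the comparison of genes did not use, because the platform annotation gives each of them several symbols. The first probe set naming both Cma2 and Mcpt9 had a log2 difference (MatDup.dist7 minus PatDup.dist7) of -4.63 and the second of -4.38. Among the 1621 probe sets with several symbols these were the lowest differences, at ranks 1 and 2. Over the settings tried for them they ranged from -6.78 to -2.96 and from -4.67 to -3.76, at least 2-fold in all 6 settings each. No biparental culture gives a level to set them against, and the difference was not tested.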

How the results depend on the processing

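Of the 10 members, 5 were at least 2-fold lower in MatDup.dist7 in the main setting, with a pseudocount of 1, with the floor, after quantile normalisation, after centring and under the 3-fold rule; the count was 4 with a pseudocount of 64, where Gzmg stood at -0.89, and 6 when the Cma2 and Mcpt9 probe sets were added as a further item, an alternative chosen after seeing the data. Of all genes, 3.16% were at least 2-fold lower in the main setting, 8.55% with a pseudocount of 1 and 0.401% with 64. That share was 3.92% with the floor, 3.70% after quantile normalisation and 4.13% after centring, and 0.552% of all genes passed the 3-fold rule. The members' median of -1.08 was -0.58 with a pseudocount of 64 and -1.66 with the Cma2 and Mcpt9 probe sets. It was -2.02 with the signal filter, which left 6 members. The other alternatives moved it by less than 0.40, between -1.22 and -1.08. No probe set with several symbols named a member, no member had a value under 1 and each had 1 probe set, so those alternatives could change no member. The filter could not change the count either, as Gzme, Gzmd, Gzmg and Mcpt4 pass it through the array where they are high. Gzmf reached 2-fold, as the higher gene in MatDup.dist7, only with a pseudocount of 1. No member changed sign. The list medians of trophoblast and decidua ran from -0.02 to 0.09, of the basophil markers from 0 to 0.91 and of the other cluster proteases from -0.82 to 0; the other 9 lists kept their sign. Gzmb, Gzmc, Gzmf and Ctsg lay under the filter on both arrays, and Gzme, Gzmd, Gzmg and Mcpt4 on the MatDup.dist7 array. The size of the latter differences therefore depends on the treatment of low signal, with ranges of -3.14 to -1.99 for Gzme, -2.88 to -1.40 for Gzmd, -2.82 to -0.89 for Gzmg and -3.12 to -1.55 for Mcpt4. No paired analysis was possible because each genotype had 1 array, and for the same reason no replicate could be left out.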

Other observations

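Beside the protease cluster lie genes for connexins, the proteins of gap junctions, that went the opposite way from the proteases. Gjb2 had an intensity of 286 on the MatDup.dist7 array against 73.1 on the PatDup.dist7 array (log2 difference 1.76), and Gja3 had 152 and 50.3 (1.34), while the adjacent Gjb6 had 10.6 and 7.77 (0.16). On the other side of the cluster Cideb, a lipid droplet protein gene, had 113 and 25.1 (1.65), and Ripk3, a kinase gene of necroptosis, had 339 and 610 (-0.82). These genes were chosen after their values were seen, and the differences were not tested.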
